A study of Rattus norvegicus with 8 samples.

Results

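Apolipoproteins, sterol exporters and lipoprotein receptors were followed in cultured astrocytes of Sprague Dawley rat pups that had met melanoma cells of the brain metastasis culture 12-273 BM, or their medium. The 6 genes were chosen by symbol from the 28546 rows of the deposited count table. They comprise the secreted carriers Apoe and Clu, the exporters Abca1 and Abcg1, and the receptors Lrp1 and Scarb1, and all 6 passed the filter on low counts that left 14445 tested genes. For sh-APP (n = 3) the melanoma cells bore a hairpin, named shAPPa in the labels, against APP, the gene of the amyloid precursor protein. For anti-Abeta (n = 3) they carried the construct labelled Scr, and an antibody against amyloid beta was added. For control (n = 2) they carried Scr without the antibody. Every group thus held melanoma-exposed astrocytes, and no unexposed astrocytes are compared here. The labels describe the exposure as co-culture, as 24 h in melanoma-conditioned medium, and as medium of the astrocytes placed on the melanoma cells, without saying how these go together, and separate cultures within a group are not stated, so each p-value reflects the spread of these libraries alone, which may be technical.

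Astrocytes are the main source of apolipoprotein E in the brain, which lipoproteins made by the liver hardly enter. Sterol exporters at the plasma membrane load cholesterol and phospholipid onto secreted carriers, and lipoprotein receptors on neurons and glia take the particles up. Both carriers and several of these receptors also bind amyloid beta, and the liver X receptors, nuclear receptors for oxidised sterols, are known to switch on the genes of apolipoprotein E and of both exporters.

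Total counts per library ran from 34250464 to 47831595. Astrocyte markers were high in sum in all groups. All 13 were detected, though Gjb6 had only 92 counts over all libraries. Their summed level was 19518 to 22714 CPM (counts scaled to a common library size, here by the library total) in sh-APP. It was 15343 to 16101 in anti-Abeta and 15215 to 16130 in control, with Gfap holding the most counts over all libraries. The marker sums given here leave out the TMM factors, a further scaling of each library that the calls use. Both control libraries had low factors (0.901 and 0.923), and every other library had a larger one, between 0.987 and 1.06. Levels are divided by these factors, so TMM scaling would lift the control sums against the others. How the groups compare in these sums therefore depends on the scaling. Of the astrocyte markers 9 were called higher and 1 lower in sh-APP against control (76.9%, against 53.7% of all tested genes). In anti-Abeta 4 were called higher and 3 lower (53.8%, against 29.2% of all tested genes). The part of these markers in the results on the 6 genes was not tested. Markers of microglia and macrophages, which also make apolipoprotein E, summed to 11.6 to 14.4 in sh-APP, 12.6 to 22.7 in anti-Abeta and 11.2 to 14.2 in control over 9 markers, with Cd68 the highest, Cx3cr1 at 0 counts in every library and P2ry12 at 10 counts in all. Markers of the oligodendrocyte lineage summed to 2869 to 3007 in sh-APP, 2738 to 3082 in anti-Abeta and 2071 to 2199 in control, most of it Olig1, and neuronal markers to 161 to 172 in sh-APP, 229 to 286 in anti-Abeta and 298 to 330 in control. Most of the neuronal sum was Map2, and of the 7 neuronal markers 3 were called higher and 3 lower in sh-APP (85.7%, against 53.7% of all tested genes). Markers of melanocytes, the cell type melanoma arises from, summed to 2303 to 2492 in sh-APP, 3572 to 3778 in anti-Abeta and 3868 to 3901 in control, most of it Gpnmb, with Mlana at 2 counts in all, and the part of these lists in the results was not tested either. The App gene of the astrocytes, which is not the target of the hairpin in the melanoma cells, did not pass in either arm (adjusted p = 0.323 in sh-APP and 0.414 in anti-Abeta). Anti-Abeta replicate 2 stood apart from its group, with a chi-square per degree of freedom of 45.8 and 30.9 against its partners where all other pairs of replicates gave 17.1 to 20.4. Anti-Abeta replicate 1 stood apart on the second principal component (12.3% of the variance), at 47.4 where the other libraries lay between -11.0 and 0.63.

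The reference table of rat promoters (RefSeq, build GRCr8) matched 3 of the 6 genes by symbol, Apoe, Abca1 and Lrp1. Apoe and Abca1 are shown because their levels moved in opposite directions in sh-APP. Each run covers 250 bases before to 50 bases after a start site, 5′ to 3′ on the gene's strand. Capitals mark the motifs found on either strand: the GC box GGGCGG, the E-box CACGTG, the TATA box TATAAA, and the direct repeat known from liver X receptor elements, searched as GGTNA and, after 5 further bases, GGTCA.
Abca1, chr5:72596424-72596723, minus strand: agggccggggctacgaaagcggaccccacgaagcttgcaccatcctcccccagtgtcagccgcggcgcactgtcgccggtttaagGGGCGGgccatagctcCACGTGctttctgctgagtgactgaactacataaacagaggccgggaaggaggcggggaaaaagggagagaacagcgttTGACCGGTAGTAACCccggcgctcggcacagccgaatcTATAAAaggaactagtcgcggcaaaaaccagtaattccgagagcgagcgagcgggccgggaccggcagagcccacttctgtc
Apoe, chr1:88484650-88484949, minus strand: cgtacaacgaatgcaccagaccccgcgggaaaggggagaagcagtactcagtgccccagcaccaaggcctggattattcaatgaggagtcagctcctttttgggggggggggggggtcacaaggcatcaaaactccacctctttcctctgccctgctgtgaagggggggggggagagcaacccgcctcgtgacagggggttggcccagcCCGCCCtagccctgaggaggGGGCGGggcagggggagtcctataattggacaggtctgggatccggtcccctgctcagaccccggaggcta
The Abca1 window held 1 direct repeat, read on the opposite strand and beginning at position -70 from the start, with 1 E-box, 1 GC box and 1 TATA box, none of which overlapped another. The Apoe window shown, 1 of 3 listed for the gene, held 2 GC boxes and none of the other motifs. Of the other 2 windows, 1 overlaps it and holds the same boxes and 1 held no motif, and the Lrp1 window held 1 GC box. The direct repeat occurred in 77 of the 33469 windows of this length in the table (0.230%), the E-box in 6.42%, the TATA box in 14.2% and the GC box in 33.1%. A match is a description of the letters, not a measured site.

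Both secreted carriers rose in sh-APP. Apoe, the main lipid carrier of the brain, had 12627, 11785 and 10904 CPM (here and from now on after scaling by TMM factors) in the sh-APP libraries, 10302, 8861 and 11041 in the anti-Abeta libraries, and 7159 and 7224 in the control libraries. The lowest treated library, anti-Abeta replicate 2, still lay above both control libraries, while the sh-APP and anti-Abeta libraries overlapped. Mean Apoe was 11772 ± 862 CPM in sh-APP (SD, n = 3) and 7191 ± 46.1 in control (n = 2), a log2 fold change of 0.71 ± 0.10 (SE) or 1.64-fold (adjusted p = 8.50e-05, edgeR). Apoe took 1.14% to 1.34% of all counts of the sh-APP libraries, 0.875% to 1.13% in anti-Abeta, and 0.645% and 0.667% in control. No other row of the table held more counts in any sh-APP library or in anti-Abeta replicates 1 and 3, a statement on reads and not on molecules, because counts were not divided by transcript length. In bulk RNA of this kind, a change in the number of cells of a type and a change in RNA per cell cannot be told apart.

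Clu, which encodes clusterin, a secreted chaperone also named apolipoprotein J, had the largest rise of the 6 genes in sh-APP. It stood at 1721, 1527 and 1717 CPM in the sh-APP libraries, 910.1, 834.9 and 936.9 in the anti-Abeta libraries, and 731.7 and 759.5 in the control libraries. The 3 groups did not overlap, with anti-Abeta just above control and sh-APP far above both. Its log2 fold change in sh-APP was 1.15 ± 0.08 (SE), or 2.22-fold (adjusted p = 4.08e-06), higher than that of 97.0% of tested genes. Clu overlaps Scara3 on the chromosome, and the sources used here do not give the strand setting of the counting, so reads of the shared stretch cannot be assigned. Scara3 itself stood at 106 ± 12.0 CPM in sh-APP (n = 3) and 62.4 ± 8.77 in control (n = 2), with a log2 fold change of 0.77 ± 0.11.

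**Figure D1:**
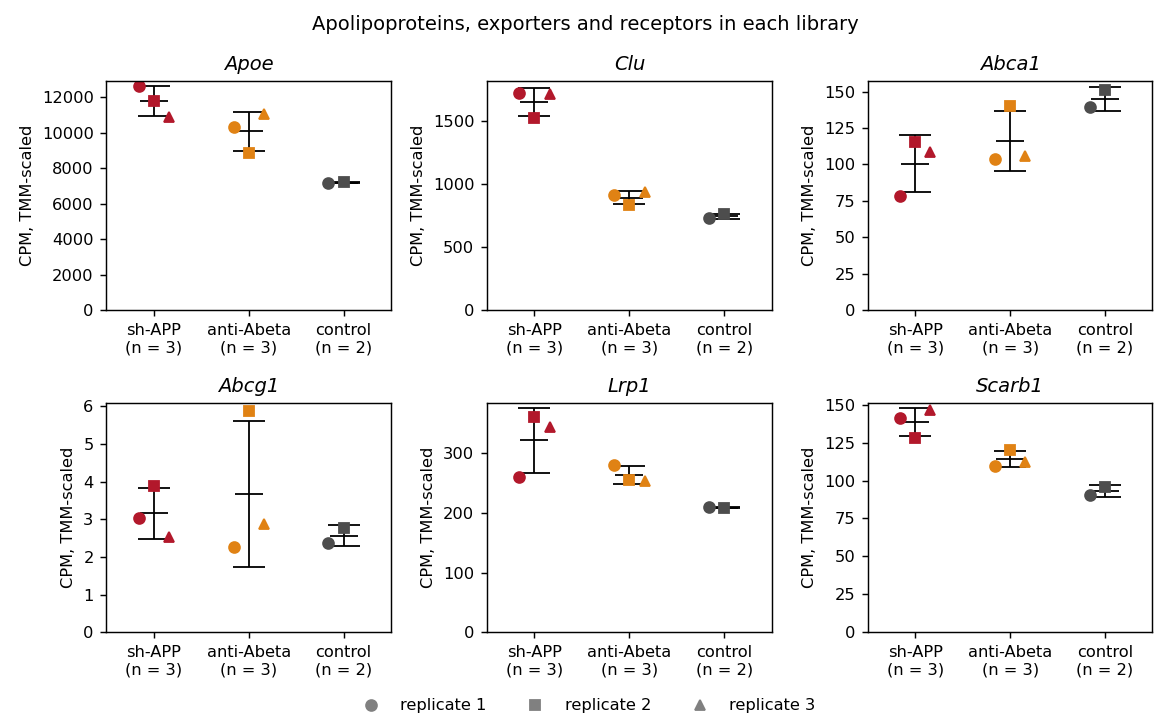
Level of each of the 6 genes in CPM after TMM scaling (vertical axes, from 0) in the sh-APP, anti-Abeta and control libraries, with points for libraries and bars for mean ± SD. Apoe, Clu, Lrp1 and Scarb1 lie above both control libraries in every treated library, Abca1 is lowest in sh-APP replicate 1 at 78.2 CPM, and Abcg1 reaches 5.87 CPM in anti-Abeta replicate 2.

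Neither exporter was called higher in either arm. Abca1, the transporter that loads cholesterol onto lipid-poor apolipoproteins, stood at 78.2, 115 and 108 CPM in the sh-APP libraries, 103, 140.0 and 105 in the anti-Abeta libraries, and 139 and 151 in the control libraries. All sh-APP libraries lay below both control libraries, whereas anti-Abeta replicate 2 lay between the control libraries. Abca1 fell by 0.53 on the log2 scale in sh-APP (SE 0.16, adjusted p = 0.0129). The call was lost without control replicate 2 (log2 fold change -0.45, adjusted p = 0.108), and with library totals in place of TMM factors (-0.33, adjusted p = 0.0834) or no filter on low counts (-0.53, adjusted p = 0.0862).

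Abcg1, which moves sterols to particles that already hold lipid, was counted far less. It had 133, 181 and 111 counts in the sh-APP libraries, 79, 240 and 141 in the anti-Abeta libraries, and 85 and 102 in the control libraries. These correspond to 3.03, 3.88 and 2.54 CPM in sh-APP, 2.25, 5.87 and 2.87 in anti-Abeta, and 2.36 and 2.75 in control, so the groups overlapped. Anti-Abeta replicate 2 held the highest value and anti-Abeta replicate 1 the lowest. Their counts have exact Poisson 95% intervals of 211 to 272 and 62.5 to 98.5, which cover counting error only and do not meet. No change passed the test, with log2 fold changes of 0.30 ± 0.37 in sh-APP (SE, adjusted p = 0.519) and 0.52 ± 0.37 in anti-Abeta (adjusted p = 0.316). Without anti-Abeta replicate 2 the anti-Abeta value was -0.00546 (adjusted p = 0.991).

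Both receptors rose in sh-APP, and each overlaps an uncharacterised non-coding RNA gene whose reads cannot be separated. Lrp1, a large endocytic receptor that takes up apolipoprotein E particles and many other ligands, stood at 260.1, 362 and 344 CPM in the sh-APP libraries, 281, 256 and 254 in the anti-Abeta libraries, and 210 and 209 in the control libraries. Every treated library lay above both control libraries, and sh-APP replicate 1 lay within the anti-Abeta range. The log2 fold change was 0.62 ± 0.12 in sh-APP (SE, 1.54-fold, adjusted p = 0.000788). Scarb1, the scavenger receptor for high-density lipoprotein, stood at 141, 128 and 146 CPM in the sh-APP libraries, 109.7, 120.1 and 112 in the anti-Abeta libraries, and 90.5 and 96.0 in the control libraries. Its 3 groups did not overlap and kept the order sh-APP, anti-Abeta, control. It rose by 0.57 ± 0.08 on the log2 scale in sh-APP (1.49-fold, adjusted p = 0.000101).

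Across the 6 genes 4 were called higher and 1 lower in sh-APP against control, and 5 did not overlap between the groups. In this comparison 53.7% of the 14445 tested genes passed, 25.8% upward and 27.9% downward. The groups did not overlap for 70.7% of them, 35.7% higher and 35% lower. Calls for 5 of 6 genes therefore stand against a background in which most genes were called. The median log2 fold change was 0.60 over the 6 genes and 0.03 over all tested genes.

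**Figure D2:**
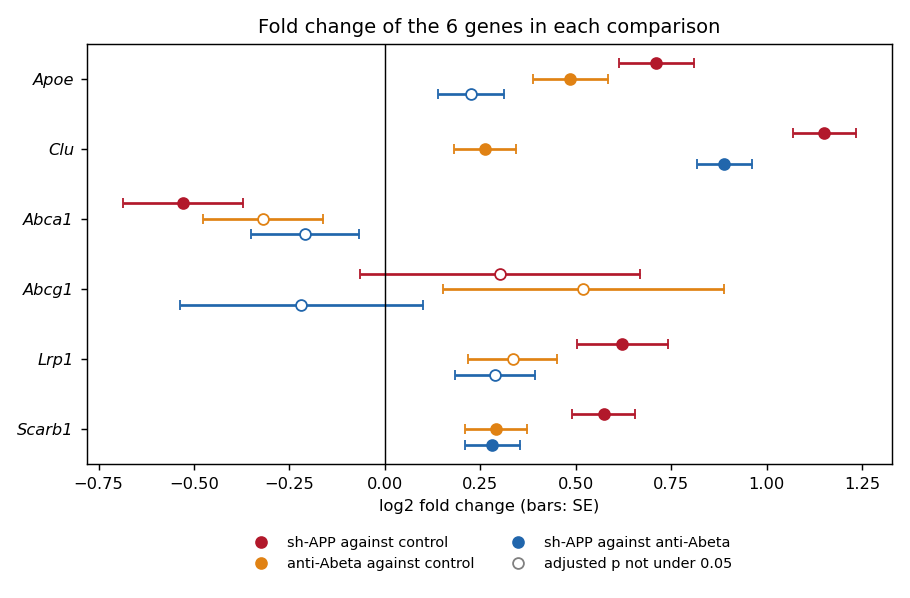
Log2 fold change (horizontal axis, bars for SE) of the 6 genes in the comparisons of sh-APP with control, of anti-Abeta with control and of sh-APP with anti-Abeta, with filled points where the adjusted p was under 0.05. Clu stands out at 1.15 in sh-APP against 0.26 in anti-Abeta, and Abca1 lies below 0 in all 3 comparisons, with only its sh-APP value filled.

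The antibody arm targets amyloid beta with an antibody in place of the hairpin against APP. Apoe rose to 10068 ± 1108 CPM in anti-Abeta (SD, n = 3), against 7191 ± 46.1 in control (n = 2), a log2 fold change of 0.49 ± 0.10 (SE, 1.40-fold, adjusted p = 0.00537). Scarb1 rose by 0.29 ± 0.08 (adjusted p = 0.0205) and Clu by 0.26 ± 0.08 (adjusted p = 0.0296). Lrp1 had a log2 fold change of 0.33 ± 0.12 that missed the threshold (adjusted p = 0.0508), with all anti-Abeta libraries above both control libraries. It passed without anti-Abeta replicate 2 (0.34, adjusted p = 0.0491) and without sh-APP replicate 1 (0.0106) or 2 (0.0387), which enter the shared estimate of the spread. Abca1 had -0.32 ± 0.16 (adjusted p = 0.149), and -0.49 without anti-Abeta replicate 2 (adjusted p = 0.0178). Thus 3 of 6 genes were called higher and 0 lower by edgeR (also 0 lower by DESeq2 and by the raw p at 0.05), while 29.2% of the tested genes passed, 12.7% upward and 16.6% downward. For 4 of the 6 the groups did not overlap, all 4 higher, against 54.9% of all tested genes, 27.9% higher and 27% lower. The 2 arms share the control libraries, so their values are not independent. These calls depend on the 2 control libraries. Without control replicate 1 none of the 6 was called (adjusted p = 0.0705 for Apoe, 0.192 for Scarb1 and 0.204 for Clu), and calls over all genes dropped to 439. Without control replicate 2 only Apoe kept its call, with adjusted p = 0.0872 for Clu and 0.0622 for Scarb1. The Clu call was also lost without anti-Abeta replicate 1 (adjusted p = 0.0783) or 3 (0.0978).

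Set directly against each other, the arms differed most in Clu. It averaged 1655 ± 111 CPM in sh-APP and 894.0 ± 52.9 in anti-Abeta (SD, n = 3 each), a log2 fold change of 0.89 ± 0.07 (SE, 1.85-fold, adjusted p = 5.16e-05). Scarb1 was higher in sh-APP by 0.28 ± 0.07 (adjusted p = 0.0139), a call lost without sh-APP replicate 1 (0.0527) or 3 (0.0646). Apoe differed by 0.23 ± 0.09 (adjusted p = 0.0764) and Lrp1 by 0.29 ± 0.10 (adjusted p = 0.0617), which did not pass, and Abca1 by -0.21 ± 0.14 (adjusted p = 0.313) and Abcg1 by -0.22 ± 0.32 (adjusted p = 0.664) with overlapping libraries. Lrp1 passed without sh-APP replicate 1 (0.42, adjusted p = 0.00644) and Apoe without anti-Abeta replicate 3 (0.30, adjusted p = 0.0404). Without anti-Abeta replicate 2 the Abca1 difference was -0.03 (adjusted p = 0.889) and that of Abcg1 0.31 (adjusted p = 0.450), and without sh-APP replicate 1 that of Abca1 was -0.06 (adjusted p = 0.801). In this comparison 2 of 6 genes were called and did not overlap, both higher. Over all tested genes 26.1% passed, 10.1% upward and 16% downward, and 41.3% did not overlap, 19.2% higher and 22.1% lower.

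Ratios of raw counts within a library do not depend on how libraries are scaled. The ratios were chosen with the direction of these genes known, so their direction is a description and their permutation p-values are no test of it. Apoe had 161, 102 and 101 counts per Abca1 count in the sh-APP libraries, 99.5, 63.3 and 105 in the anti-Abeta libraries, and 51.4 and 47.8 in the control libraries. All treated libraries lay above both control libraries, and the means were 121 ± 34.7 in sh-APP and 49.6 ± 2.56 in control (SD, n = 3 and 2), 2.45-fold apart. The two-sided exact permutation p was 0.1 for sh-APP against control, which is the smallest these group sizes allow, 0.2 for anti-Abeta against control and 0.4 between the arms.

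The ratio of the 2 carriers, picked after its values were seen, separated all 3 groups. Clu had 0.136, 0.130 and 0.157 counts per Apoe count in the sh-APP libraries, 0.0883, 0.0942 and 0.0849 in the anti-Abeta libraries, and 0.102 and 0.105 in the control libraries. Relative to Apoe, Clu was thus highest in sh-APP and lowest in anti-Abeta, with control between and no overlap. Each comparison gave an exact two-sided permutation p of 0.1, the smallest possible. Because the ratio was picked after its values were seen, this p is no test of the separation. Abcg1 had 0.0388, 0.0336 and 0.0235 counts per Abca1 count in the sh-APP libraries, 0.0218, 0.0419 and 0.0272 in anti-Abeta, and 0.0170 and 0.0182 in control, so all treated libraries again lay above control, with an exact permutation p of 0.2 in each arm.

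**Figure D3:**
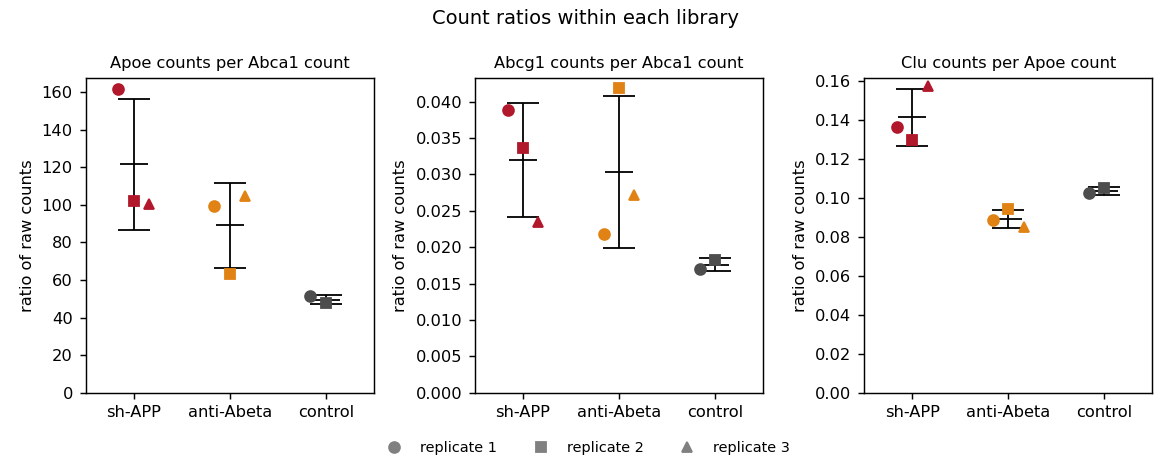
Counts of Apoe per Abca1 count, Abcg1 per Abca1 count and Clu per Apoe count (vertical axes, raw count ratios from 0) in each sh-APP, anti-Abeta and control library, with bars for mean ± SD. Clu per Apoe count is at least 0.130 in sh-APP and at most 0.0942 in anti-Abeta, on either side of the control libraries at 0.102 and 0.105.

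The 6 genes were then set beside 57 other genes of lipoprotein and sterol handling, of which 51 were tested. The untested ones were Apoa1, Apob, Lrp1b, Cd36 and Olr1, with 7 to 37 counts over all libraries, and Sorl1. No row under the symbol Sorl1 was found in the count table used here. In sh-APP 20 rose, 8 fell and 23 did not pass, so 54.9% were called, against 53.7% of all tested genes. Their median log2 fold change was 0.33, and 0.03 over all tested genes. In anti-Abeta 13 rose, 2 fell and 36 did not pass (29.4%, against 29.2% of all tested genes), with a median of 0.14, against 0.03 over all tested genes. Without control replicate 1, only Nr1h2 of these 15 calls was left in anti-Abeta.

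Among enzymes that reshape lipoproteins, Lcat, which esterifies cholesterol on particles, rose to 13.5 ± 1.91 CPM in sh-APP (SD, n = 3), against 6.67 ± 1.84 in control (n = 2), a log2 fold change of 1.01 ± 0.22. Pltp, the phospholipid transfer protein, rose by 0.56 ± 0.12, and it overlaps Ctsa. Lpl, a lipase that frees fatty acids from particles, fell by 0.95 (SE 0.34), a call lost without sh-APP replicate 1 (adjusted p = 0.0607) or 2 (0.104) or control replicate 2 (0.481), with limma-voom (0.0528) and with library totals (0.0686). None of these 3 passed in anti-Abeta. Of the other carriers only Apod was called, at means of 0.362 CPM in sh-APP and 1.21 in control, a call lost without sh-APP replicate 2 (adjusted p = 0.0515) or control replicate 2 (0.176).

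Of the 4 other exporters, Abca2, a transporter of endosomes and lysosomes, rose in both arms. It stood at 201 ± 3.53 CPM in sh-APP and 142 ± 10.8 in anti-Abeta (SD, n = 3 each), against 106 ± 7.95 in control (n = 2), with log2 fold changes of 0.92 ± 0.08 and 0.41 ± 0.08. Abcg4, a close relative of Abcg1, rose by 0.52 ± 0.16 in sh-APP and 0.56 ± 0.16 in anti-Abeta. In sh-APP its call was lost without control replicate 1 (adjusted p = 0.0669) or 2 (0.0555). In anti-Abeta it was lost without either control library (0.130 and 0.0854) and without anti-Abeta replicate 1 (0.0519) or 3 (0.0647). Abca5 and Abca7 did not pass in either arm.

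Of 13 tested receptors, 4 rose and 1 fell in sh-APP (38.5% called, against 53.7% of all tested genes). Among them, Lrp10 rose by 0.74 ± 0.08 and Lrp5, a receptor for Wnt ligands, by 0.67 ± 0.10. Sort1, the sorting receptor sortilin, rose by 0.37 ± 0.09. The 1 that fell was Lrp12 (-0.57 ± 0.16), picked after its values were seen, with its call lost without control replicate 2 (adjusted p = 0.0570) and with library totals (0.0551). In anti-Abeta 3 receptors rose and 0 fell (23.1% called, against 29.2% of all tested genes). Among those that rose were Lrp10 by 0.34 ± 0.07 and Lrp5 by 0.50 ± 0.10. Among the proteins that serve these receptors, Lrpap1, the chaperone that escorts Lrp1 through the secretory pathway, rose by 0.41 ± 0.07 in sh-APP, and Snx17, which recycles Lrp1 to the surface, by 0.54 ± 0.07. The endocytic adaptor Dab2 fell by 0.82 (SE 0.16), and Dab1, the adaptor of reelin receptors, had -0.53 ± 0.12, lost without control replicate 2 (adjusted p = 0.0612). Snx17 also rose in anti-Abeta, by 0.33 ± 0.07, and was the only 1 of the 8 adaptors called there (12.5%, against 29.2% of all tested genes).

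Of 9 regulators of these genes, 7 rose and 1 fell in sh-APP (88.9% called, against 53.7% of all tested genes). Srebf1, the sterol-regulated factor that drives lipid synthesis genes, stood at 558 ± 34.8 CPM in sh-APP (SD, n = 3), against 266 ± 42.6 in control (n = 2), a log2 fold change of 1.07 ± 0.10, and it overlaps Rai1. Nr1h2, the liver X receptor found in most tissues, rose to 110.0 ± 9.87 CPM in sh-APP, against 63.5 ± 1.79 in control, a log2 fold change of 0.79 ± 0.09. Scap, which carries these factors out of the endoplasmic reticulum, rose by 0.68 ± 0.08 and Srebf2, the factor for cholesterol synthesis genes, by 0.45 ± 0.07. The 1 that fell was Insig1, which holds them back when sterols are plentiful (-0.30 ± 0.07), picked after its values were seen, and with library totals its value was -0.10 (adjusted p = 0.284). In anti-Abeta 5 of the 9 rose and 1 fell (66.7% called, against 29.2% of all tested genes). Among those that rose were Nr1h2 by 0.57 ± 0.09, Srebf1 by 0.44 ± 0.10, Scap by 0.37 ± 0.08 and Srebf2 by 0.27 ± 0.07. Insig1 was again the 1 that fell (-0.23 ± 0.07), with values of -0.18 with upper-quartile factors (adjusted p = 0.0670) and -0.08 with library totals (0.435). The Insig1 call in anti-Abeta was also lost with a block for the replicate number (adjusted p = 0.0559) and with only the groups compared (0.0591). It was lost as well without anti-Abeta replicate 1 (0.0754) or 3 (0.0886), and without control replicate 2 (log2 fold change -0.24). The Srebf2 call there was lost without anti-Abeta replicate 3 (adjusted p = 0.0545) or control replicate 2 (0.0555).

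Of 11 genes of sterol storage, traffic and oxidation, 3 rose and 2 fell in sh-APP (45.5% called, against 53.7% of all tested genes). Those that fell were Nceh1, a hydrolase of cholesteryl esters (-0.89 ± 0.08), and Soat1, which makes such esters (-0.55 ± 0.10). The value of Lipa, the lysosomal hydrolase of these esters, picked after its values were seen, was 0.04 ± 0.10 (adjusted p = 0.762). Stard3, which moves cholesterol between endosomes and the endoplasmic reticulum, rose by 0.58 ± 0.08. Cyp46a1, which oxidises cholesterol to a form that leaves the brain, rose by 0.75 ± 0.14, and Npc2, a carrier of cholesterol in lysosomes picked after its values were seen, by 0.34 ± 0.08. In anti-Abeta Stard3 rose by 0.34 ± 0.08, Cyp46a1 by 0.41 ± 0.14 (adjusted p = 0.0483) and Nceh1 fell by 0.25 (SE 0.08, adjusted p = 0.0377). The Cyp46a1 call there was lost with limma-voom (adjusted p = 0.0680), RLE size factors (0.0571), no filter (0.0607), a replicate block (0.0652) and only the groups compared (0.0676). It was lost without sh-APP replicate 1 (0.0512) or 2 (0.0648) and without anti-Abeta replicate 2 (0.0957) or 3 (0.119). Leaving out control replicate 1 (log2 fold change 0.42) or 2 (0.39) also lost it. That of Nceh1 was lost with library totals (adjusted p = 0.374), upper-quartile factors (0.0746), a replicate block (0.0775) and only the groups compared (0.0676). It was lost without sh-APP replicate 3 (0.0519) and without anti-Abeta replicate 1 (0.0831) or 3 (0.103). Leaving out control replicate 1 (log2 fold change -0.15) also lost it.

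**Figure D4:**
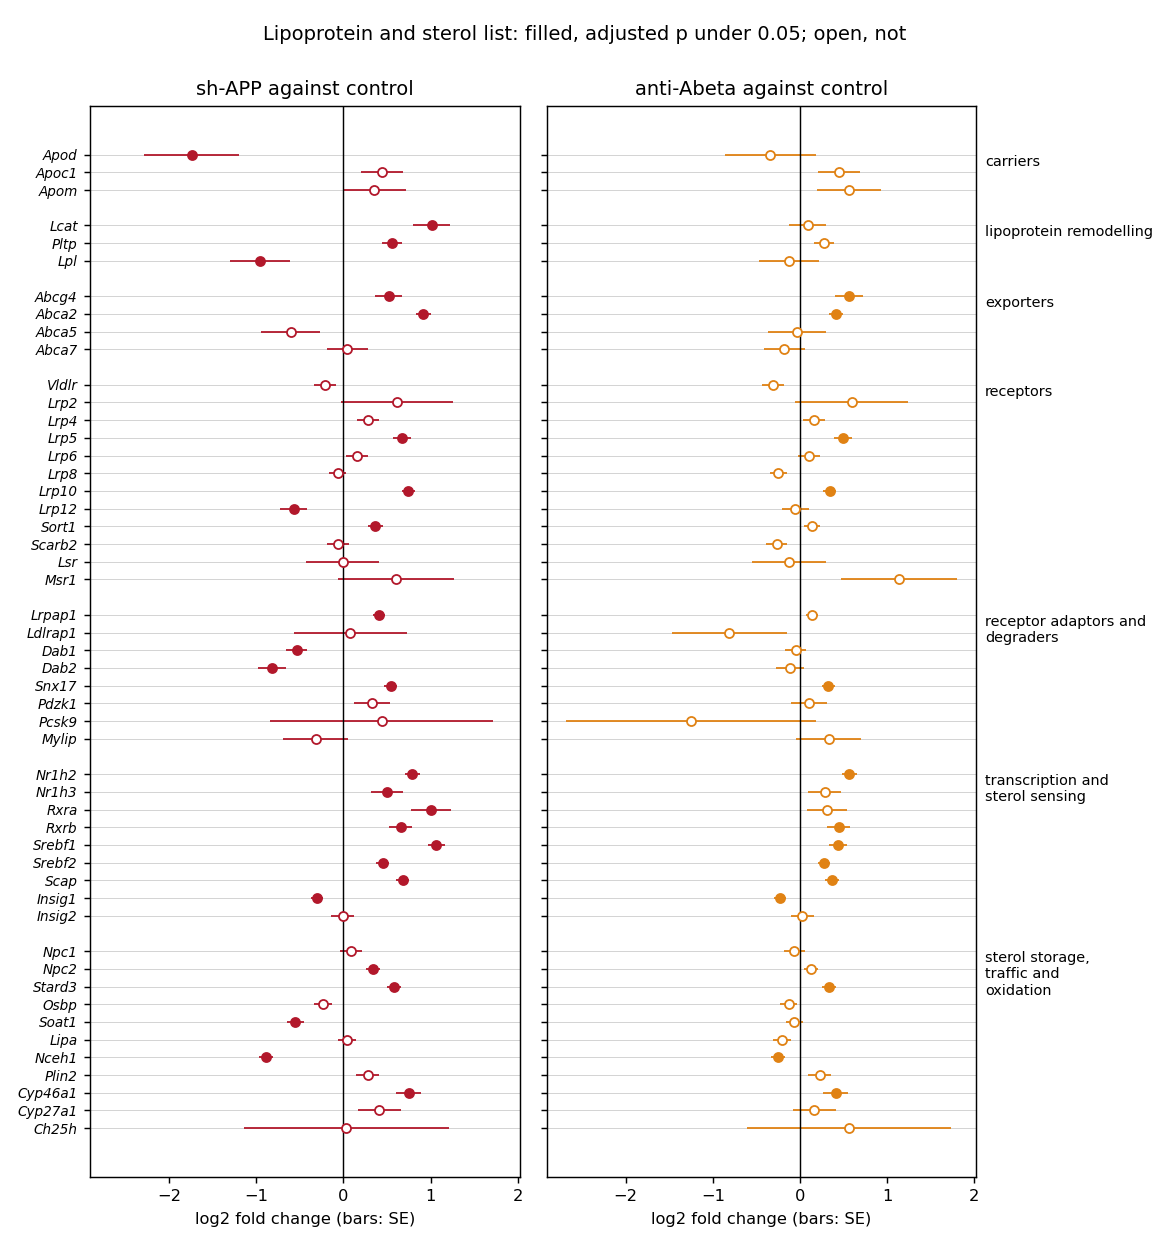
Log2 fold change (horizontal axes, bars for SE) of tested genes of the lipoprotein and sterol list, 1 left out, in sh-APP against control and in anti-Abeta against control, grouped by role, with filled points where the adjusted p was under 0.05. The filled points of the sterol-sensing group lie to the right of 0 except Insig1.

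Profiles over the 8 libraries were compared by the root mean square difference of centred log2 CPM, as a description. Among the 6 genes, Apoe and Scarb1 were closest (0.158), followed by Lrp1 and Scarb1 (0.171), and Clu and Abca1 were farthest apart (0.732). Of 9660 genes with a mean of at least 5 CPM, those closest to Apoe were Dxo (0.0370), Dkc1 (0.0387) and Cd3eap (0.0411), against a median of 0.318. Those closest to Clu were Tst (0.0583), Fxyd1 (0.0741) and Gfap (0.0743), the intermediate filament gene of astrocytes. Those closest to Abca1 were Ptprz1 (0.0737), Son (0.0820) and Xpnpep3 (0.0878). For Lrp1 they were Sptan1 (0.0711), Mgat3 (0.0901) and Ubr4 (0.0902), and for Scarb1 Plekhm1 (0.0292), Tbc1d22a (0.0321) and Slc41a1 (0.0408). The nearest to Abcg1, Sema6b (0.208), Ntn1 (0.249) and Cryab (0.281), lay farther off than those of the other 5 genes. Abcg1 itself, with group means of 2.56 to 3.67 CPM, lay under the 5 CPM asked of the candidates. The part of its counting error and of its high anti-Abeta replicate 2 in this distance was not tested.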

How the data were processed

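RNA-seq was measured in 8 libraries. The authors deposited raw counts for each gene symbol, whose values were checked to be whole numbers with totals that differ between libraries. The submitters' processing notes list the build rn6 and the tools HTSeq 0.11.1, STAR 2.6.0a, Trimmomatic 0.36, DESeq2 1.24.0, FastQC 0.11.7 and SAMtools 1.9, without their roles. No strand setting is given there, and 26 gene symbols had been turned into dates, none of which is named.

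All libraries entered a group-only fit in edgeR 4.0.16 (R 4.3.3) with TMM factors, filterByExpr (minimum count 10, minimum total 15) and the robust quasi-likelihood test with 5 residual degrees of freedom. P-values were adjusted by Benjamini-Hochberg over all tested genes, with a threshold of 0.05. Each SE is the log2 fold change over the root of its F value. Counting intervals are exact Poisson intervals. At this depth the spread between libraries limits the precision for each of the 6 genes but Abcg1, where counting error adds to it. The tests were checked on simulated data. Alternatives were DESeq2 1.42.0, limma-voom (limma 3.58.1), other scalings and filters, a block for the replicate number, a non-robust spread, fits limited to the compared groups, and dropping 1 library at a time. The ratio of Clu to Apoe was added after seeing the data.

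The 6 genes and the lists were chosen with earlier results of these data known. From the list, up to 4 called genes per role and arm with the smallest p were named, and the 3 genes closest in profile to each of the 6. The result for 1 list gene that this rule names is not reported here, though the counts include it. Overlaps on the chromosome came from a table of assembly GRCr8.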

Additional observations from a re-analysis of the deposited data

How the results depend on the processing

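Of the values of the 6 genes under alternatives, 289 kept their direction and side of the threshold, 14 lost a call, 19 gained one and 2 changed sign. With library totals alone, the median of all genes shifted to 0.23 in sh-APP and 0.18 in anti-Abeta, with 5174 higher and 3091 lower calls in sh-APP (3723 and 4027 with TMM factors) and 3590 and 1417 in anti-Abeta (1832 and 2391). The list calls were then 26 higher and 5 lower in sh-APP, and 18 and 0 in anti-Abeta.

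Abca1 in sh-APP lost its call with library totals (-0.33) and with no low-count filter (-0.53). Lrp1 in anti-Abeta gained a call with DESeq2 (0.32), upper-quartile factors (0.38), library totals (0.49), no filter (0.33), a filter of 1 CPM in 3 libraries (0.34) and only the groups compared (0.33). Between the arms, Apoe gained a call with DESeq2 (0.23), upper-quartile factors (0.26), library totals (0.28) and no filter (0.23), and Lrp1 with DESeq2 (0.29), upper-quartile factors (0.32) and library totals (0.34). The cause was not tested. With the replicate number as a block, Clu (0.23, adjusted p = 0.0675) and Scarb1 (0.28, adjusted p = 0.0508) lost their calls in anti-Abeta, and no other call of the 6 genes changed. The correlation of deviations between same-numbered sh-APP and anti-Abeta libraries was 0.105, 0.0984 and -0.00562. Between differently numbered libraries of these groups it ran from -0.108 to 0.0150. With so few libraries, each centred on its group mean, these values cannot settle whether libraries of the same number were paired.

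Leaving out 1 library gave, in sh-APP, -0.64 to -0.38 for Abca1 and 0.12 to 0.43 for Abcg1, the lowest without sh-APP replicate 2. In anti-Abeta it gave 0.41 to 0.56 for Apoe, 0.22 to 0.29 for Clu, 0.24 to 0.33 for Scarb1, 0.28 to 0.36 for Lrp1, -0.49 to -0.24 for Abca1 and -0.00546 to 0.77 for Abcg1. Between the arms it gave 0.16 to 0.30 for Apoe, 0.20 to 0.42 for Lrp1, 0.24 to 0.34 for Scarb1, -0.32 to -0.03 for Abca1 and -0.46 to 0.31 for Abcg1, the 2 sign changes of Abcg1 both being without anti-Abeta replicate 2 (-0.00546 and 0.31). Calls over all genes ran from 439 to 4775 in anti-Abeta and 2233 to 3582 between the arms, and list calls from 1 to 18 and 10 to 19, with the lowest without control replicate 1 in anti-Abeta and without sh-APP replicate 1 between the arms. For Apoe, Clu, Abca1, Lrp1 and Scarb1 the spread between libraries, not depth, limits the precision. For Abcg1 counting error adds to the spread between libraries, with wide Poisson intervals for its control counts, 67.9 to 105 and 83.2 to 124.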
